A study of Rattus norvegicus with 26 samples.

Results

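GABA-A receptor alpha subunit genes were followed across spinal cord injury and the transplantation of hUC-MSCs, mesenchymal stem cells taken from human umbilical cord, in the rat. The 4 genes were Gabra2 (ENSRNOG00000002349), Gabra3 (ENSRNOG00000056558), Gabra4 (ENSRNOG00000002336) and Gabra5 (ENSRNOG00000010803), taken by symbol from the 32883 genes in the deposited table of read counts. All 4 passed the filter on low counts that left 17990 genes for testing. The 26 RNA sequencing libraries came from wild-type Sprague-Dawley rats, labelled as postnatal day 70, and all injured rats were adult females. The injury was a clip compression of the cord at T10 with a force of 60 g, and each library was made from a 5 mm segment around the lesion. Uninjured cord formed the Intact group (n = 4). Injured cord taken 7 days after injury, when the transplant was given to the others, formed the sub-SCI group (n = 3). The +PBS groups received an intrathecal injection of vehicle at that time and were collected after 1 week (n = 3), 2 weeks (n = 2) or 4 weeks (n = 4), and the +MSC groups received hUC-MSCs and were collected after 1 week (n = 3), 2 weeks (n = 3) or 4 weeks (n = 4). Per the study's methods, cyclosporin A was given daily against rejection, so an effect of the cells was measured in its presence, and reads matching the human genome were removed before counting. The study's methods name +MSC-2w rather than +PBS-2w as the smallest group, and the labels were followed. The libraries held between 19496602 and 43468509 counts. The labels do not say that libraries with different numbers came from different animals, though the study's methods describe biological replicates for each condition. The p-values measure the spread between these samples.

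GABA-A receptors are pentameric chloride channels opened by the inhibitory transmitter GABA, and the alpha subunit contributes to the GABA binding site and sets much of a receptor's kinetics, drug sensitivity and place on the cell. In the spinal cord, receptors with the alpha 2 or alpha 3 subunit take part in fast inhibition at synapses, including inhibition of sensory transmission in the dorsal horn. Receptors with alpha 4 or alpha 5 are best known for sites outside the synapse, where they carry tonic inhibition. All are prominent in neurons. In RefSeq's gene order, Gabra2 and Gabra4 belong to 1 cluster of GABA-A receptor genes, with 1 protein-coding gene between them, whereas Gabra3 and Gabra5 lie on other chromosomes.

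Promoters were set beside the measurements because Gabra3 and Gabra5 followed the most similar course of the 4 genes, as described further on. RefSeq's promoter table for the GRCr8 build held 3 of the 4 genes: Gabra3 (chrX:155543871-155544120, minus strand), Gabra4 (chr14:36944497-36944746, plus strand) and Gabra5 (chr1:117516607-117516856, minus strand). The 250 bases before each start are printed 5′ to 3′, and capitals mark matches on either strand to GGGCGG (the GC box), TATAAA (the TATA box), TGACGTCA (the cyclic AMP response element) or GCGNGGGCG (the motif of the EGR factors).
Gabra3: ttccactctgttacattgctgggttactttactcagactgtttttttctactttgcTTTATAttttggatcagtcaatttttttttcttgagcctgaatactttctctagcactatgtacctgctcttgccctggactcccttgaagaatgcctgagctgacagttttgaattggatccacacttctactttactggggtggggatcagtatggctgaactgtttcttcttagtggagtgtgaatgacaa
Gabra4: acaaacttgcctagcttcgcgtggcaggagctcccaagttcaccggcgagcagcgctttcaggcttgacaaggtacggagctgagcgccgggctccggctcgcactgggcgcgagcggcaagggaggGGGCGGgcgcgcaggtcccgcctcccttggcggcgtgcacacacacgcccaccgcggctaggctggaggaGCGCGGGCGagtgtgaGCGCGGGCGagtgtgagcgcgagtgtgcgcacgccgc
Gabra5: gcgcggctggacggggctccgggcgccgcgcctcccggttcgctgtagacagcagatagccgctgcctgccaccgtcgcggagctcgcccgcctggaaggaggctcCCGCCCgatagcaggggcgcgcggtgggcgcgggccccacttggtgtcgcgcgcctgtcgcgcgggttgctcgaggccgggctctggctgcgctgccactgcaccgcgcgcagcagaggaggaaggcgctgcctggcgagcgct
The Gabra3 window was 40.4% G+C and held no CpG, against medians of 51.2% and 5 CpG over 33469 promoter windows of the same length. Its match, TTTATA, is TATAAA on the other strand, and 12.9% of all windows held that motif. The Gabra4 and Gabra5 windows were 71.6% and 76.4% G+C, with 33 and 37 CpG, and each held 1 GC box, a motif present in 30.5% of windows. The Gabra4 window also held 2 copies of the EGR motif, found in 4.29% of windows. None of these 3 windows held TGACGTCA, present in 1.59%. The similar course of Gabra3 and Gabra5 was measured in genes whose windows differ widely in base composition.

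Before injury Gabra2 had the highest level per length of transcript and Gabra4 the lowest. In CPM (counts scaled to library size) divided by gene length in kb, Intact cord held 25.2 ± 1.39 of Gabra2, 16.7 ± 2.90 of Gabra3, 14.8 ± 1.55 of Gabra5 and 2.05 ± 0.051 of Gabra4 (SD, n = 4). The ranges of Gabra3 (13.6 to 20.0) and Gabra5 (13.3 to 17.0) overlapped, and those of the other neighbours in this order did not. In CPM not divided by length, the Intact ranges of Gabra2 (49.2 to 56), Gabra5 (44.6 to 56.8) and Gabra3 (34.2 to 50.3) overlapped. The separate rank of Gabra2 in Intact cord thus depends on the listed gene lengths. These were 2070 bases for Gabra2, 2514 for Gabra3 and 3345 for Gabra5. In sub-SCI cord the mean levels were 5.74 ± 1.35 for Gabra2, 1.46 ± 0.765 for Gabra3, 1.13 ± 0.807 for Gabra5 and 0.506 ± 0.210 CPM per kb for Gabra4 (SD, n = 3). Gabra2 remained separate above the others, while the ranges of Gabra3 and Gabra5, and of Gabra5 and Gabra4, overlapped.

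In 1 library, +PBS-4w replicate 1, Gabra2 lay well below and Gabra5 well above the rest of its group. Gabra2 was at 9.17 CPM there against 28.3 to 40.6 CPM in the 3 other libraries, whereas Gabra5 was at 24.1 CPM against 4.02 to 6.42 CPM. Gabra3 and Gabra4 were also highest there. Dixon's outlier test, of the gap to the next library over the range, flagged none of these values. That share was 0.758 for Gabra2, 0.379 for Gabra3, 0.809 for Gabra4 and 0.74 for Gabra5. The mean level of 15 neuron markers lay 0.89 log2 units below Intact in that library and 2.19 to 2.64 below in the others. More widely, replicate 1 was the lowest library for Gabra2 in 5 of 8 groups and the highest for Gabra5 in 6 of 8. Values without these libraries are therefore given beside the results that turned on them. On the scale relative to neuron markers, libraries were left out only singly. Because +PBS-4w replicate 1 was picked out by these genes' own values, fits without it show dependence on it and are not separate support.

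**Figure D1:**
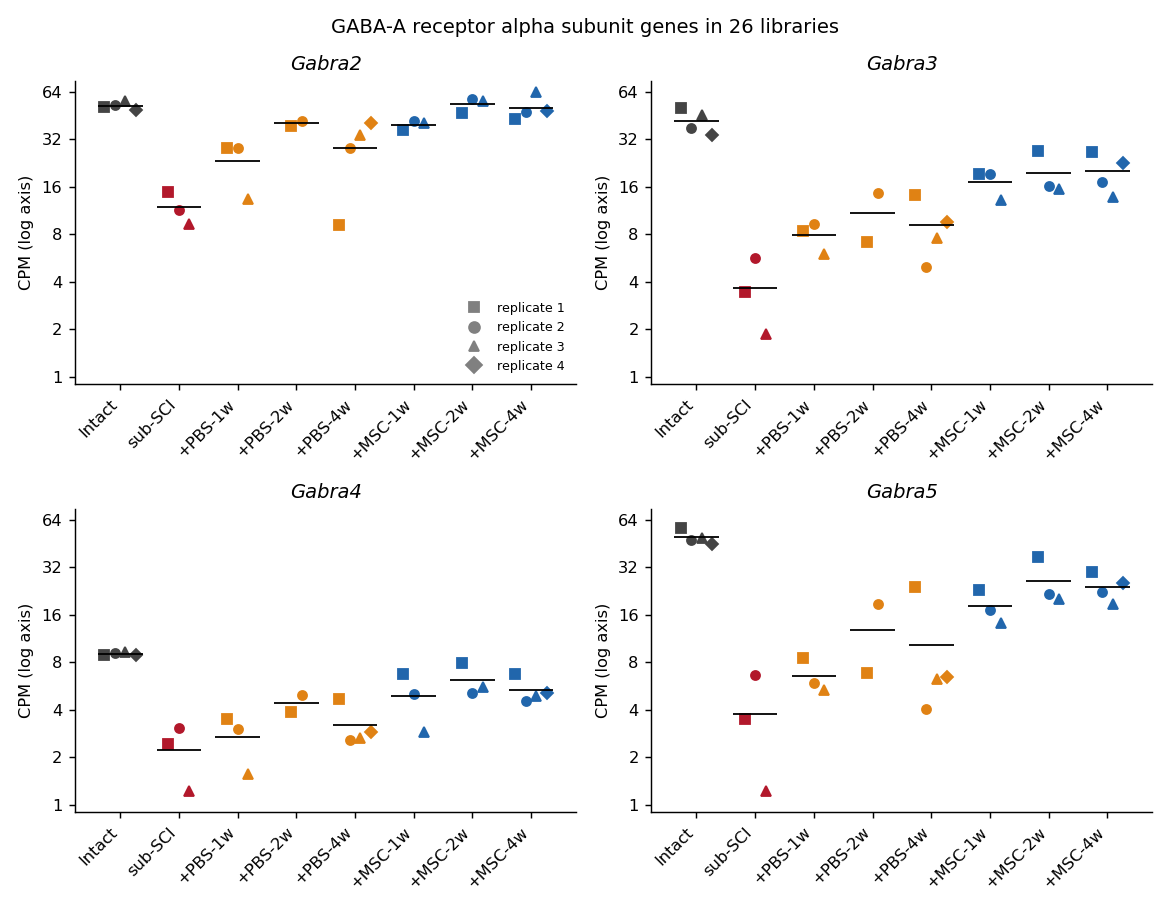
CPM of each gene in every library, on a log axis, with groups along the x axis, 1 marker per library shaped by replicate number, and a line at the group mean. Intact libraries sit highest for Gabra3, Gabra4 and Gabra5, and the square of +PBS-4w (replicate 1) lies lowest for Gabra2 and highest for Gabra5 within its group.

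All 4 alpha subunit genes were lower at the time of transplantation than in uninjured cord. Gabra5 and Gabra3, the genes of the alpha 5 and alpha 3 subunits, fell to 7.62% and 8.73% of the Intact mean, and Gabra2 and Gabra4 fell to 22.8% and 24.7%. Gabra5 read 56.8, 47.5, 49.1 and 44.6 CPM in the Intact libraries and 3.49, 6.60 and 1.22 CPM in the sub-SCI libraries. Gabra3 read 50.3, 37.7, 45.5 and 34.2 CPM in Intact and 3.43, 5.69 and 1.86 CPM in sub-SCI. Both genes were far apart between the groups, with the third sub-SCI library lowest for each. Gabra2 read 51.2, 52.5, 56.0 and 49.2 CPM in Intact and 14.9, 11.5 and 9.29 CPM in sub-SCI. Gabra4 read 8.89, 9.12, 9.34 and 8.86 CPM in Intact and 2.44, 3.04 and 1.22 CPM in sub-SCI. No sub-SCI library overlapped an Intact library for any of the 4 genes. How many of all genes tested separated in this way was not counted, here or in the later comparisons of ranges. The lowest values rested on 36 counts, for Gabra4 and for Gabra5 in the third sub-SCI library.

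A gene was called when edgeR's quasi-likelihood test gave an absolute log2 fold change above 1 and a Benjamini-Hochberg adjusted p under 0.01. By this rule 4 of 4 genes fell in sub-SCI against Intact, where 17.5% of all genes tested were called lower. The log2 fold changes were -3.72 ± 0.58 for Gabra5 (SE, adjusted p = 9.61e-06), -3.52 ± 0.40 for Gabra3 (adjusted p = 1.87e-07), -2.13 ± 0.33 for Gabra2 (adjusted p = 1.11e-05) and -2.02 ± 0.33 for Gabra4 (adjusted p = 2.19e-05) in edgeR. These calls held in every alternative that was run.

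With vehicle alone Gabra2 lay nearest to Intact and Gabra3 and Gabra5 farthest below it. Gabra2 read 28.1, 28.3 and 13.5 CPM in +PBS-1w, 39.2 and 41.7 CPM in +PBS-2w, and 9.17, 28.3, 34.2 and 40.6 CPM in +PBS-4w. Its group means were 44.6%, 77.5% and 53.7% of Intact. All 9 +PBS libraries were nevertheless below the lowest Intact library. Gabra5 read 8.56, 5.86 and 5.32 CPM in +PBS-1w, 6.85 and 18.7 CPM in +PBS-2w, and 24.1, 4.02, 6.26 and 6.42 CPM in +PBS-4w. Its means were 13.3%, 25.9% and 20.6% of Intact, and the pair of +PBS-2w libraries differed widely. Gabra3 read 8.38, 9.25 and 6.04 CPM, then 7.20 and 14.7 CPM, then 14.3, 4.94, 7.65 and 9.59 CPM over the same groups. Gabra4 read 3.48, 3.02 and 1.56 CPM, then 3.87 and 4.94 CPM, then 4.70, 2.58, 2.64 and 2.89 CPM. The means of Gabra3 were 18.8%, 26.2% and 21.8% of Intact and those of Gabra4 29.7%, 48.7% and 35.3%. Neither gene had a +PBS library within the Intact range at any week.

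In +PBS-1w against Intact, 4 of 4 genes were called lower, against 12.5% of all genes, with log2 fold changes from -1.16 (Gabra2) to -2.91 (Gabra5). With single libraries left out the count was 3 to 4, and Gabra2 ranged from -1.33 to -0.89. In +PBS-2w 1 of 4 was called, Gabra3 with -1.93 ± 0.43 (SE, edgeR adjusted p = 0.00157), against 5.66% of all genes. Gabra5 had a similar size there, -1.95 ± 0.61, with an adjusted p of 0.0162. DESeq2 on all libraries called 3 of 4 genes in +PBS-2w, and the fit of the libraries other than replicate 1 called none, with 1 library left in that group. In +PBS-4w 3 of 4 genes were called lower, against 10.7% of all genes, and Gabra2 had -0.90 ± 0.29 (edgeR adjusted p = 0.0127). Without +PBS-4w replicate 1 the log2 fold change of Gabra2 was -0.55 and that of Gabra5 -3.10. These comparisons and the one with sub-SCI share the Intact libraries.

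Gabra2 rose within the injured cord that received vehicle. In +PBS-4w against sub-SCI its log2 fold change was 1.24 ± 0.32 (SE, edgeR adjusted p = 0.0078), and 1 of 4 genes was called higher, against 4.28% of all genes. Without +PBS-4w replicate 1 it was 1.52. Gabra3 and Gabra5 had 1.32 ± 0.37 (adjusted p = 0.0127) and 1.44 ± 0.53 (adjusted p = 0.0494) in edgeR, and 1.00 and 0.55 without that library. Gabra4 had 0.52 ± 0.32. The count moved between 0 and 2 under other settings, with no call under median-of-ratios size factors or with no filter, and no test compared these changes between genes.

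Cord that received hUC-MSCs had higher means of all 4 genes than vehicle cord at each week, though no gene met the rule for a call at a single week. Gabra5 read 22.9, 17.0 and 14.2 CPM in +MSC-1w, 37.2, 21.6 and 20.0 CPM in +MSC-2w, and 29.6, 22.1, 18.6 and 25.5 CPM in +MSC-4w. All +MSC libraries exceeded all +PBS libraries of the same week at weeks 1 and 2. At week 4 they exceeded 3 of the 4 +PBS libraries, since +PBS-4w replicate 1 was at 24.1 CPM. Gabra3 read 19.2, 19.3 and 13.2 CPM in +MSC-1w, 26.9, 16.3 and 15.6 CPM in +MSC-2w, and 26.8, 17.1, 13.8 and 22.8 CPM in +MSC-4w. It overlapped with +PBS only at week 4, again through +PBS-4w replicate 1. Gabra2 read 36.5, 41.6 and 40.4 CPM, then 46.8, 57.7 and 56.1 CPM, then 42.8, 47.8, 64.0 and 48.5 CPM. It showed no overlap with +PBS at any week. Gabra4 read 6.76, 5.03 and 2.88 CPM, then 7.90, 5.13 and 5.60 CPM, then 6.76, 4.52, 4.90 and 5.08 CPM. Its groups overlapped at weeks 1 and 4. The share of all genes tested without such overlap was not counted.

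By week, edgeR called 0 of 4 genes in +MSC against +PBS, and DESeq2 on all libraries also called 0 of 4 at each week. DESeq2 on the 2 groups alone called 2 of 4 at week 1. At an unadjusted p under 0.05, 4 of 4 passed at week 1, 0 of 4 at week 2 and 4 of 4 at week 4. Among the 17990 genes tested, 1899, 988 and 2020 passed that in the higher direction at weeks 1, 2 and 4. Of all genes, 0.0% were called higher at weeks 1 and 2, and 0.495% at week 4. At week 2 the differences of Gabra3, Gabra4 and Gabra5 depended on which libraries were kept. Their log2 fold changes were 0.84, 0.50 and 1.04. In the libraries other than replicate 1, with 1 +PBS-2w library left, they were 0.10, 0.11 and 0.14, while Gabra2 had 0.44 in place of 0.40. With single libraries left out, Gabra3 ranged from 0.41 to 1.44, Gabra4 from 0.28 to 0.68 and Gabra5 from 0.49 to 1.94. In its own clustering, the study describes 1 +PBS-2w sample as an outlier that grouped with +MSC-2w. The week 4 result turned on 1 library, picked out by these genes' own values, so the fit without it is no separate support. The share of all genes called without it is not given here. Without +PBS-4w replicate 1, 2 of 4 genes were called, Gabra5 with a log2 fold change of 2.08 ± 0.40 (SE, edgeR adjusted p = 0.00342) in place of 1.23 ± 0.46 (adjusted p = 0.122), and Gabra3 with 1.42 ± 0.33 (adjusted p = 0.00865) in place of 1.14 ± 0.33 (adjusted p = 0.0528).

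Averaged over the 3 weeks, 2 of 4 genes were called higher in +MSC, against 1.61% of all genes. Gabra5 rose by 1.24 ± 0.31 on the log2 scale (SE, edgeR adjusted p = 0.00828) and Gabra3 by 1.03 ± 0.22 (adjusted p = 0.00309). Gabra4 had 0.69 ± 0.20 (adjusted p = 0.0151) and Gabra2 0.67 ± 0.19 (adjusted p = 0.0165), below the size needed for a call. Gabra3 sat close to the fold threshold, and the count moved between 0 and 2 when single libraries were left out. In the libraries other than replicate 1 neither was called, with 1.20 for Gabra5 (adjusted p = 0.0161) and 0.82 for Gabra3 (adjusted p = 0.0437) in edgeR. The effect of the cells did not pass a test of change between weeks for any gene: edgeR and DESeq2 on all libraries each called 0 of 4 in the 3 contrasts of weeks, 0 of 4 had an unadjusted p under 0.05, and 0.0% of all genes were called.

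**Figure D2:**
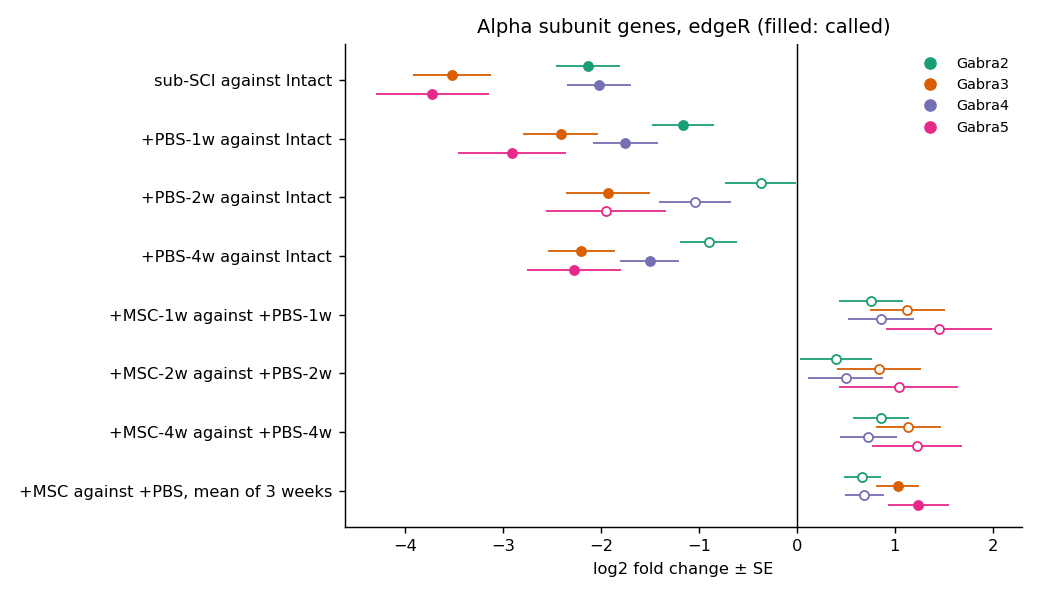
Log2 fold change (x axis) of each gene in 8 comparisons (y axis) with its SE from edgeR; filled points were called. Gabra5 and Gabra3 lie farther from 0 than Gabra2 and Gabra4 in sub-SCI against Intact and in +MSC against +PBS over 3 weeks, where only these 2 were called.

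Gabra2 was close to its Intact level in +MSC-2w and +MSC-4w, and the other alpha subunit genes lay below theirs. Its means were 75.7%, 103% and 97.2% of Intact in +MSC-1w, +MSC-2w and +MSC-4w, with log2 fold changes against Intact of -0.40 ± 0.31, 0.04 ± 0.31 and -0.04 ± 0.29 (SE). In +MSC-2w, 2 of 3 libraries were above every Intact library, and in +MSC-4w 1 of 4. For Gabra3, Gabra4 and Gabra5 every +MSC library was below every Intact library at all 3 weeks, and their means in +MSC-4w were 48.0%, 58.7% and 48.4% of Intact. Against Intact, edgeR called 1 of 4 genes lower in +MSC-1w (Gabra3, -1.28 ± 0.36, adjusted p = 0.00937), against 2.63% of all genes. In the libraries other than replicate 1 that gene had -1.24 and was not called (edgeR adjusted p = 0.0261), and the count ranged from 0 to 2 when single libraries were left out. It called 0 of 4 in +MSC-2w and +MSC-4w, against 0.461% and 1.53%. In those groups 1 of 4 and 3 of 4 had an unadjusted p under 0.05, and DESeq2 on all libraries called 0 of 4 and 1 of 4. Among the 17990 genes tested, 2607 and 3503 had such a p in edgeR with a lower level. Against sub-SCI, 4 of 4 genes were called higher in +MSC-4w, against 10.2% of all genes, with log2 fold changes from 1.25 (Gabra4) to 2.67 (Gabra5). In the libraries other than replicate 1, 3 of 4 were called and Gabra4 had 1.14 (edgeR adjusted p = 0.02). The Gabra4 call was also lost without sub-SCI replicate 1, sub-SCI replicate 3 or +MSC-4w replicate 1.

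The make-up of the summed level of these 4 genes shifted towards Gabra2 with injury. Per length of transcript, Gabra2 was 43.1% ± 2.92 of the sum in Intact cord (SD, n = 4) and 66.8% ± 12.3 in sub-SCI (SD, n = 3). Gabra5 went from 25.2% ± 1.21 to 11.8% ± 6.44 and Gabra3 from 28.2% ± 2.57 to 15.9% ± 4.97, while Gabra4 was 3.50% and 5.57%. The sum itself went from 58.8 ± 5.03 to 8.84 ± 2.57 CPM per kb. Although the sum was 40.9 ± 2.38 CPM per kb in +MSC-4w (SD, n = 4), Gabra2 still made up 59.9% ± 9.31 and Gabra5 17.5% ± 3.46 of it. In +PBS-4w the share of Gabra2 ranged from 24.1% in replicate 1 to 78.5%. Other alpha subunit genes were not analysed here, so these are shares of the 4 genes only. The shares also depend on the listed gene lengths.

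**Figure D3:**
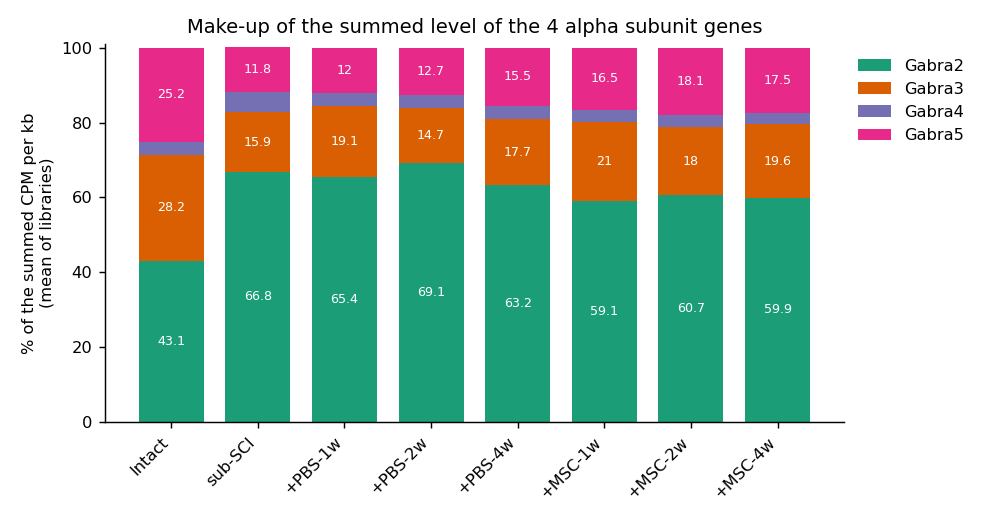
Share of each gene in the summed CPM per kb of the 4 genes (y axis, percent, mean of the libraries) in the 8 groups. The Gabra2 share is 43.1% in Intact and between 59.1% and 69.1% in all injured groups.

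Whether the genes changed by unequal amounts was tested on the log2 ratio of each of 6 pairs within a library, by exact two-sided permutation of the libraries, with p-values adjusted over 12 ratio tests. Injured cord without cells (sub-SCI and +PBS, 12 libraries) was compared with Intact (4 libraries). The ratio of Gabra4 to Gabra5 was 1.30 log2 units higher in injured cord (exact permutation p = 0.0011, adjusted p = 0.0111), and that of Gabra3 to Gabra4 was 0.95 lower, a log2 difference of -0.95 (exact permutation p = 0.0022, adjusted p = 0.0111). Gabra2 gained on Gabra3 by 1.33 (exact permutation adjusted p = 0.0313) and on Gabra5 by 1.68 (exact permutation adjusted p = 0.033). The ratios of Gabra2 to Gabra4 and of Gabra3 to Gabra5 differed by 0.38 and 0.36, within the spread of the libraries (exact permutation adjusted p = 0.408 and 0.179). Thus the genes separated into Gabra2 and Gabra4 on one side and Gabra3 and Gabra5 on the other in 4 of 6 pairs tested. Without +PBS-4w replicate 1 the ratio of Gabra3 to Gabra5 differed by 0.43 (exact permutation p = 0.0256, not adjusted).

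With cells, the ratios of +MSC to +PBS libraries were compared within weeks. The ratio of Gabra4 to Gabra5 was lower in +MSC by 0.70 log2 units, a difference of -0.70 (exact permutation p = 0.00279, adjusted p = 0.0111), so Gabra5 gained on Gabra4. Gabra3 gained 0.38 on Gabra4 (exact permutation adjusted p = 0.033), and the ratio of Gabra3 to Gabra5 changed by -0.33 (exact permutation adjusted p = 0.0435). Each difference had the same sign at all 3 weeks. The Gabra3 to Gabra4 ratio moved by 0.25 without replicate 1 of every group (exact permutation p = 0.0889). Pairs with Gabra2 differed by -0.31 (Gabra3), 0.07 (Gabra4) and -0.63 (Gabra5), with exact permutation adjusted p-values of 0.408, 0.828 and 0.198. These rested on +PBS-4w replicate 1: without it the ratios of Gabra2 to Gabra3 and to Gabra5 differed by -0.55 and -0.97 (exact permutation p = 0.0336 and 0.00371, not adjusted), and that of Gabra2 to Gabra4 by -0.15. Those p-values come from dropping a library picked out by these genes' own values, so they are not separate support. The smallest p-values these designs allow are 0.000549 and 7.14e-05.

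With injury and with cells, the group levels of the 4 genes moved in the same direction as the neurons' transcripts. Gabra2 departed from them between libraries of +PBS-4w. Relative to neuron markers and to Intact, its log2 values there ranged from -1.61 to 1.83. Of 15 neuron markers, 14 were called lower in sub-SCI against Intact, against 17.5% of all genes, with a median log2 fold change of -2.71. Single markers ran from -3.4 to -1.59. Gabra2 (-2.13) and Gabra4 (-2.02) lay within that range, and Gabra3 (-3.52) and Gabra5 (-3.72) lay below it. Over the 3 weeks 4 of these markers were called higher in +MSC, against 1.61% of all genes, with a median of 0.91. Their summed level ranged from 14300 to 17000 CPM in Intact, from 861 to 3380 CPM in sub-SCI, from 2510 to 9350 CPM in +PBS-4w and from 8530 to 10400 CPM in +MSC-4w. In bulk tissue fewer neurons and less RNA of a gene per neuron cannot be told apart. The members were therefore also fitted relative to these markers, which asks only whether a gene changed more or less than they did. On this scale the median of all genes tested shifted by 3.0 in sub-SCI against Intact, so a value near 0 means a change like that of the neuron markers.

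Relative to the neuron markers, Gabra5 fell at the time of transplantation. In sub-SCI against Intact Gabra5 had -1.15 ± 0.31 (SE, edgeR adjusted p = 0.0012), and 1 of 4 genes was called lower, where 0.328% of all genes were and 83.4% were called higher. Gabra3 had -0.81 ± 0.31 (adjusted p = 0.0174), Gabra2 0.77 ± 0.49 (adjusted p = 0.139) and Gabra4 0.71 ± 0.32 (adjusted p = 0.0379), none of them called. In +PBS-1w and +PBS-2w edgeR called 0 of 4, where 78.4% and 49.5% of all genes were called in either direction. In each, 1 of 4 had an unadjusted p under 0.05, beside 15476 and 13096 of all 17990 genes. No other tool was run on this scale. In +PBS-4w Gabra2 was called with 1.41 ± 0.47 (adjusted p = 0.00695), in a comparison where 80.5% of all genes were called higher and 0.0445% lower on this scale. That value was 1.78 without replicate 1 of +PBS-4w (adjusted p = 2.53e-05), and the call was lost without any other single library of +PBS-4w or of Intact, with values from 1.24 to 1.45.

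In +MSC against +PBS no gene was called relative to the neuron markers at any week or over the 3 weeks, and 0 of 4 had an unadjusted p under 0.05 in edgeR. Of all genes, 0.0%, 0.0% and 53.0% were called in either direction at weeks 1, 2 and 4, and 61.9% over the 3 weeks. An unadjusted p under 0.05 was reached by 11597, 3842 and 14310 of 17990 genes at those weeks, and by 15302 over the 3 weeks. Over the 3 weeks Gabra3 had 0.00 ± 0.19, Gabra5 0.30 ± 0.18, Gabra4 -0.37 ± 0.19 and Gabra2 -0.44 ± 0.30 (SE). The rise of Gabra3 with cells was thus of the size of the neuron markers' own rise, within an SE of 0.19.

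**Figure D4:**
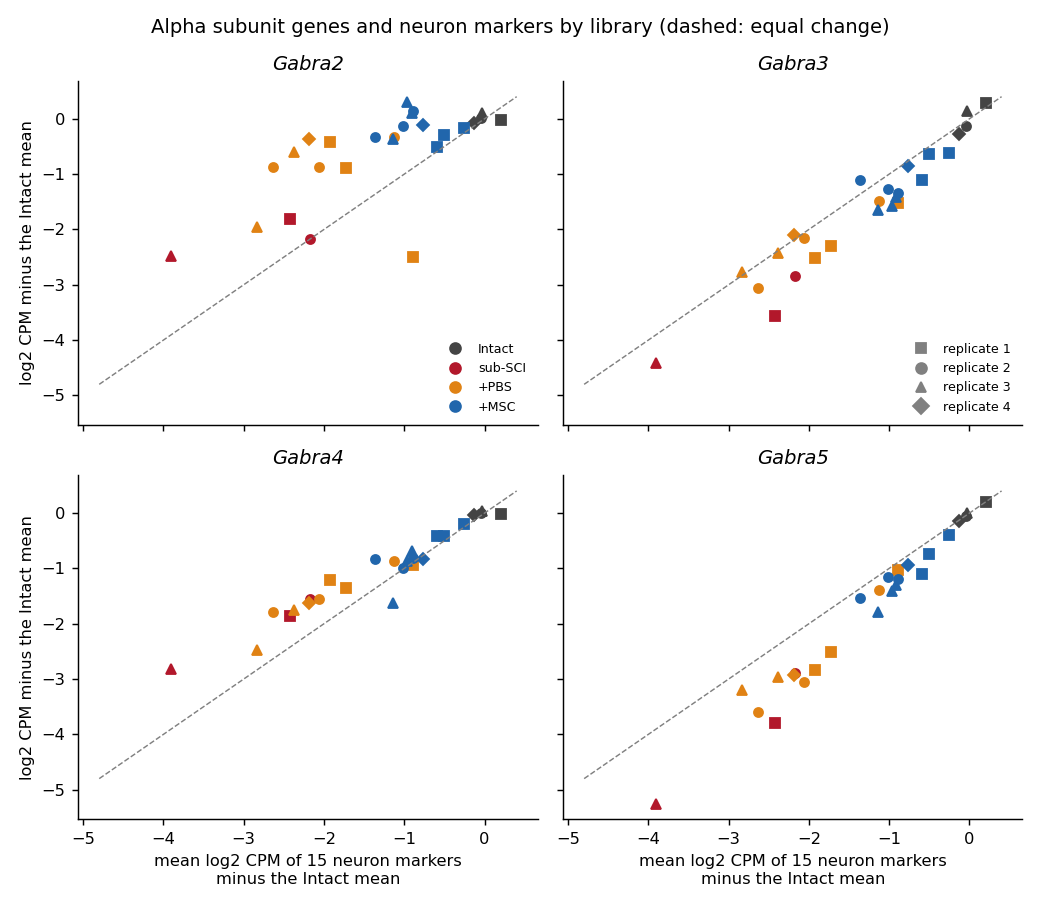
Log2 CPM of each gene (y axis) against the mean log2 CPM of 15 neuron markers (x axis), both minus their Intact means, with 1 point per library, coloured by group and shaped by replicate number. Gabra5 lies below the dashed line of equal change in all injured libraries, and the Gabra2 point of +PBS-4w replicate 1 lies far below those of the other +PBS-4w libraries.

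**Figure D5:**
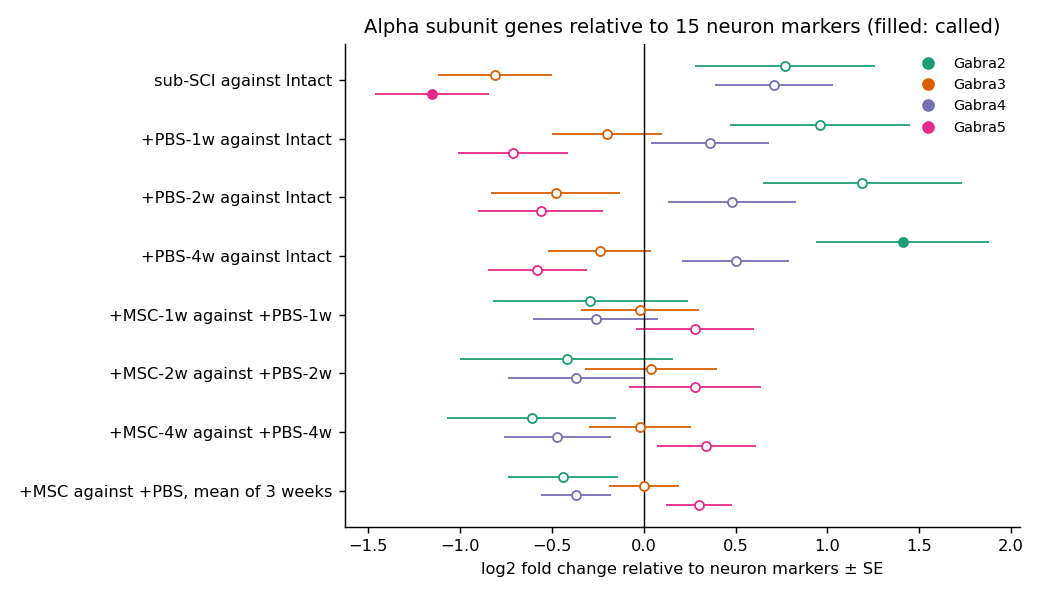
Log2 fold change of each gene relative to 15 neuron markers (x axis) in 8 comparisons (y axis) with its SE from edgeR; filled points were called. Gabra2 and Gabra4 lie above 0 and Gabra3 and Gabra5 below 0 in the 4 comparisons of injured with Intact cord.

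Markers of other cells also moved with injury. In sub-SCI 7 of 8 microglia and macrophage markers and 6 of 6 fibroblast markers were called higher. Their summed levels went from 254 to 389 CPM in Intact to 2290 to 2670 CPM in sub-SCI for the first list, and from 41.4 to 879 CPM to 6530 to 13500 CPM for the second. Oligodendrocyte markers were lower (5 of 8 called), as were 5 of 8 astrocyte markers. Of the endothelial and Schwann cell markers, 1 of 4 and 2 of 6 were called higher. Those lists were mixed, with log2 fold changes from -0.79 to 2.05 and from -0.83 to 2.84. Of all genes tested, 16.6% were called higher in sub-SCI and 17.5% lower. With cells over the 3 weeks, the fibroblast markers had a median of -1.29, with 0 of 6 called by edgeR and 6 of 6 at an unadjusted p under 0.05. Of all 17990 genes, 0.956% were called lower in that comparison, and 3275 had such a p with a lower level. The part of these other cells in the members' changes was not tested.

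The genes that work with the alpha subunits were mostly lower after injury as well. In sub-SCI against Intact, 17.5% of all genes tested were called lower and 16.6% higher. Of 13 other GABA-A receptor subunit genes, 8 were called lower and 1 higher, with a median of -1.93 beside -0.02 over all genes. The gene that rose was Gabrr2, which encodes a rho subunit, with 4.83 ± 0.50 (SE, edgeR adjusted p = 4.01e-08). Over the 3 weeks of +MSC against +PBS, 3 of the 13 were called higher, against 1.61% of all genes. The median of the 13 was 0.61 beside the 0.86 of the 4 alpha subunit genes. Of 15 genes for receptor assembly, trafficking and anchoring, 7 were lower and 1 higher after injury. Nsf, a membrane fusion ATPase, had -2.83 ± 0.33 (SE, edgeR adjusted p = 2.22e-07). The higher one was Gabarap, which encodes a receptor-associated protein also active in autophagy, with 1.64 ± 0.14. With cells, 1 of these 15 was called, Nsf with 1.03 ± 0.19 (edgeR adjusted p = 0.00106).

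The RNA of genes that handle the transmitter moved in the same direction as that of the alpha subunit genes. GABA itself was not measured. All 6 genes for GABA synthesis, release and uptake were called lower in sub-SCI, against 17.5% of all genes. The median of the 6 was -2.93 beside -2.83 for the alpha subunit genes. Gad2, a GABA-synthesising enzyme, had -2.93 ± 0.46, and Slc6a11, a glial GABA transporter, -3.48 ± 0.33. With cells 2 of 6 were called higher, against 1.61% of all genes. These were Slc6a11 with 1.28 ± 0.18 and Gad2 with 1.02 ± 0.26 (edgeR adjusted p = 0.000309 and 0.00874). Of the 2 chloride cotransporter genes, which set the chloride gradient that these receptors use, Slc12a5 (the extruder KCC2) fell by 3.78 on the log2 scale and rose with cells by 1.23 ± 0.24, both called, and Slc12a2 (the importer NKCC1) had -0.80 and 0.13. Of 10 genes of spinal neuron classes, all were lower in sub-SCI and 4 were called higher with cells.

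Among the 4 genes, Gabra3 and Gabra5 followed the most similar course. The root mean square difference of their centred log2 CPM over the 26 libraries was 0.346, and Gabra2 and Gabra5 were least alike with 1.014. Many other genes were nearer to each: Gabra5 ranked 197 of 17989 genes by nearness to Gabra3, and Gabra3 ranked 66 by nearness to Gabra5. Over all genes tested, those nearest to Gabra5 were Nat8l (0.161), Entpd3 (0.200) and Cplx1 (0.200), and those nearest to Gabra3 were Pcsk2 (0.185), Dpp10 (0.198) and Gnal (0.201). For Gabra4 they were Armh4 (0.195), Wdr17 (0.200) and Cdh22 (0.204). Genes near to Gabra2 included Gabrb1 (0.208) and Ank2 (0.213). Gabrb1 encodes a beta subunit and belongs to the same gene cluster as Gabra2, while Gabra4, in that cluster too and nearer to Gabrb1, stood at 0.622 from Gabra2 ranked 1465 of 17989 genes by nearness. These are descriptions over libraries that share depth, tissue and group differences.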

How the data were processed

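RNA sequencing counts of 26 libraries in 8 groups were analysed, with groups and replicate numbers from the sample labels. The authors used Trim Galore 0.5.0 for trimming and HISAT2 2.1.0 for alignment, first to the human build GRCh38, whose matches were discarded, and then to the rat build Rnor6. Properly paired reads (SAMtools 1.9) were assigned to genes by featureCounts 1.6.4. The deposited values are raw counts per gene. The annotation release and the strand setting are not given in the sources used here, so reads of overlapping genes cannot be told apart. Each library's own file equalled its column in the joint table.

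The counts were fitted with edgeR 4.0.16 in R 4.3.3 (filterByExpr, TMM, glmQLFit and glmQLFTest, the 8 groups as levels, no covariates), with Benjamini-Hochberg adjustment over 17990 genes. CPM used TMM library sizes, and log2 CPM a prior count of 2. For the scale relative to neuron markers, the libraries were scaled by the mean log2 CPM of 15 markers. Ratios were permuted in Python 3.11.15. Both kinds of test were tested on simulated data. Alternatives were DESeq2 1.42.0, median-of-ratios size factors, no filter, at least 10 counts in every library, a replicate block, a term for replicate 1, each library left out in turn, odd- or even-placed neuron markers only, a prior count of 0.5 and, chosen after the data were seen, the libraries other than replicate 1. The members and lists were chosen with earlier results of these data known. Genes named were the 4 members, up to 4 per list with the smallest adjusted p, and the 3 most alike to each member; some genes that qualify are not reported here. Depths of 19496602 to 43468509 counts left the lowest member value at 36 counts.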

Additional observations from a re-analysis of the deposited data

How the results depend on the processing

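Over the comparisons, the count of called members stayed within 1.5 times its value in 106 of 124 fits with other settings and in 361 of 416 fits that left out 1 library. Against Intact, +PBS-2w had 3 called members in place of 1 with the replicate block, with a term for replicate 1 libraries, and with DESeq2 on all libraries or on the 2 groups, and 0 in the libraries other than replicate 1. +MSC-1w against +PBS-1w had 2 with DESeq2 on the 2 groups. The mean of 3 weeks had 0 in the libraries other than replicate 1. Against Intact, +MSC-1w had 0 with no filter on low counts or in the libraries other than replicate 1 and 2 with DESeq2 on the 2 groups, +MSC-2w had 1 with DESeq2 on the 2 groups, and +MSC-4w had 1 with the replicate block or DESeq2 on all libraries and 2 with DESeq2 on the 2 groups. +PBS-4w against sub-SCI had 0 with median-of-ratios size factors, no filter or DESeq2 on the 2 groups, and 2 with DESeq2 on all libraries. The cause was not tested. With single libraries left out, counts ranged from 0 to 2 for +PBS-2w against Intact, +MSC-4w against +PBS-4w, the mean of 3 weeks and +MSC-1w against Intact, and from 0 to 1 for +MSC-4w against Intact and +PBS-4w against sub-SCI. Counts ranged from 3 to 4 for +PBS-1w and +PBS-4w against Intact and for +MSC-4w against sub-SCI. Relative to neuron markers they ranged from 0 to 1 in +PBS-2w and +PBS-4w against Intact.

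Signs changed in the following values, none of which was called. In the libraries other than replicate 1, Gabra2 in +MSC-4w against Intact was 0.04, and the +MSC effect at week 4 minus that at week 1 was -0.32 for Gabra2, 0.07 for Gabra4 and 0.52 for Gabra5. Relative to odd-placed neuron markers, Gabra3 was 0.07 in +MSC-1w against +PBS-1w and 0.03 in +MSC-4w against +PBS-4w. With 1 library left out, Gabra2 ranged from -0.02 to 0.12 in +MSC-2w and from -0.17 to 0.03 in +MSC-4w against Intact. The +MSC effect at week 2 minus that at week 1 ranged from -0.67 to 0.31 (Gabra3) and from -0.92 to 0.49 (Gabra5). Week 4 minus week 1 ranged from -0.19 to 0.37 (Gabra2), -0.20 to 0.33 (Gabra3), -0.40 to 0.18 (Gabra4) and -0.49 to 0.67 (Gabra5). Week 4 minus week 2 ranged from -0.30 to 0.69 (Gabra3) and -0.71 to 1.05 (Gabra5). Relative to neuron markers, Gabra3 ranged from -0.32 to 0.12, -0.08 to 0.16 and -0.14 to 0.10 in +MSC against +PBS at weeks 1, 2 and 4, and Gabra5 from -0.01 to 0.65 at week 2. Among ratios of +MSC to +PBS, Gabra2 to Gabra4 ranged from -0.15 to 0.18. With their sign kept but p moving across 0.05, Gabra2 to Gabra3 ranged from -0.55 to -0.15, Gabra2 to Gabra5 from -0.97 to -0.41, Gabra3 to Gabra5 from -0.42 to -0.26 and Gabra3 to Gabra4 from 0.26 to 0.49, the last 0.25 without replicate 1 of every group. Gabra3 to Gabra5 in injured against Intact, of which the same holds, ranged from 0.31 to 0.43.

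The replicate numbers were not taken to pair the groups, since not every pair of same-numbered libraries deviated together. The correlation of their deviations exceeded 0.1 in 18 of 28 pairs of replicate 1 (median 0.171), 5 of 28 of replicate 2 (0.01), 7 of 21 of replicate 3 (0.064) and 1 of 3 of replicate 4 (0.017). The replicate block changed the count of called members in +PBS-2w against Intact (3) and +MSC-4w against Intact (1) and in no other comparison. With 2 to 4 libraries a group, the +PBS-2w values are the least certain.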
